A study of Mus musculus with 6 samples.

Results

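The 10 genes described here encode receptors, ligands and direct targets of the Notch pathway, measured in the whole uterus of mice at 3.5 dpc (days post coitum). They are the receptors Notch1, Notch2, Notch3 and Notch4, the ligands Dll4, Jag1 and Jag2, and the transcription factors Hes1, Hey1 and Heyl. They were chosen by name, and every probe set that the platform annotation gives to 1 of them alone was taken, which made 21 of the 45037 probe sets and 10 of the 18193 genes of the arrays. A probe set is a group of short oligonucleotides on an Affymetrix array that together report 1 transcript or a few. Total RNA of uteri was hybridised to 6 arrays, 3 for each genotype, Arid1a f/f and Arid1a d/d. Both groups of females were mated and carry floxed Arid1a on both alleles. Arid1a d/d mice (Pgr cre/+ Arid1a f/f) also carry Cre recombinase in the Pgr locus, so that the floxed part is removed in cells that express the progesterone receptor, while other cells keep it. Arid1a f/f mice carry no Cre, and there were no arrays from mice with Cre alone, so loss of Arid1a and the Pgr cre allele cannot be told apart. It is not stated whether the samples were separate mice or what age they had, and the p-values then reflect the spread of these samples alone, which may be technical.

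Notch receptors span the membrane and are activated when a ligand of the Delta-like or Jagged families on a neighbouring cell pulls on them. Proteases then release the intracellular domain, which enters the nucleus, joins the DNA-binding protein RBPJ and switches on targets such as the HES and HEY repressors. In blood vessels NOTCH1, NOTCH4 and DLL4 act in the endothelium, whereas NOTCH3 is a receptor of pericytes and vascular smooth muscle cells. In the uterus the pathway is also known for roles in the stroma around implantation.

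Intensity here is the RMA value on a linear scale in arbitrary units, and the median over all probe sets and arrays was 3.12. Array medians ranged from 3.05 to 3.17. The table has no detection calls, so a value near that median cannot be told from background, and intensities of different probe sets are not compared with each other. The genotypes were compared with limma on log2 intensities, and a difference was called at an adjusted p under 0.05 (Benjamini-Hochberg over all probe sets). A negative log2 fold change means a lower intensity in Arid1a d/d mice. Each gene is represented by its brightest probe set, and the others are given beside it. Arid1a itself was lower in Arid1a d/d mice, at 91.4 ± 10.9 against 54.0 ± 3.61 (mean ± SD, n = 3 each), and the log2 fold change was -0.76 (standard error 0.12, limma adjusted p = 0.0120). The position of its probe set relative to the deleted exons was not known here. Hoxa10, a homeobox gene that patterns the uterus, read 221 ± 16.8 in Arid1a f/f mice and 218 ± 60.9 in Arid1a d/d mice (SD, n = 3 each), and Pgr, the progesterone receptor gene, read 244 ± 45.5 and 294 ± 25.2. Hoxa11, another homeobox gene, read 103 ± 8.73 and 73.3 ± 19.8 without overlap. Its log2 fold change of -0.53 was not called (limma adjusted p = 0.179). Arid1a d/d array 2 stood apart for epithelial markers, whose summed intensity was 2475 there, 1231 and 1668 on the other two Arid1a d/d arrays, and 1169 to 1252 on the Arid1a f/f arrays.

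Of the 10 genes, 5 had lower intensity in Arid1a d/d uteri and none was called higher. The genes that fell were Notch3, Notch4, Heyl, Notch1 and Jag2, with log2 fold changes between -0.84 and -0.41. Notch2, Dll4, Jag1, Hes1 and Hey1 were not called. Of all 18193 genes, 4.06% were called lower and 3.37% higher by the same rule. At an unadjusted p under 0.05 there were again 5 lower and 0 higher in limma, against 13.5% and 11.4% of all genes, and the methods' t-test likewise gave 5 and 0. After the Benjamini-Hochberg adjustment, which was added here, the methods' t-test called none of them, with a lowest adjusted p of 0.127 among the 10. Every Arid1a d/d array lay below every Arid1a f/f array for the 5 genes that fell, which held for 16.0% of all genes. Of the 10 genes, 3 were at least 1.5-fold lower (Notch3, Notch4 and Heyl), against 4.50% of all genes. A change of 1.5-fold is the filter that the authors used for the arrays. The median log2 fold change of the 10 genes was -0.29, and that of all genes was -0.018. Of the 21 probe sets 6 were lower and 0 higher, and of all probe sets 2.35% were lower and 2.42% higher. With 1 array left out, between 1 and 3 of the 10 genes kept an adjusted p under 0.05. The count was 2 without Arid1a f/f array 1 or 2, 1 without Arid1a f/f array 3, 3 without Arid1a d/d array 1, and 1 without Arid1a d/d array 2 or 3. The share of all genes called in these fits was not counted.

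**Figure D1:**
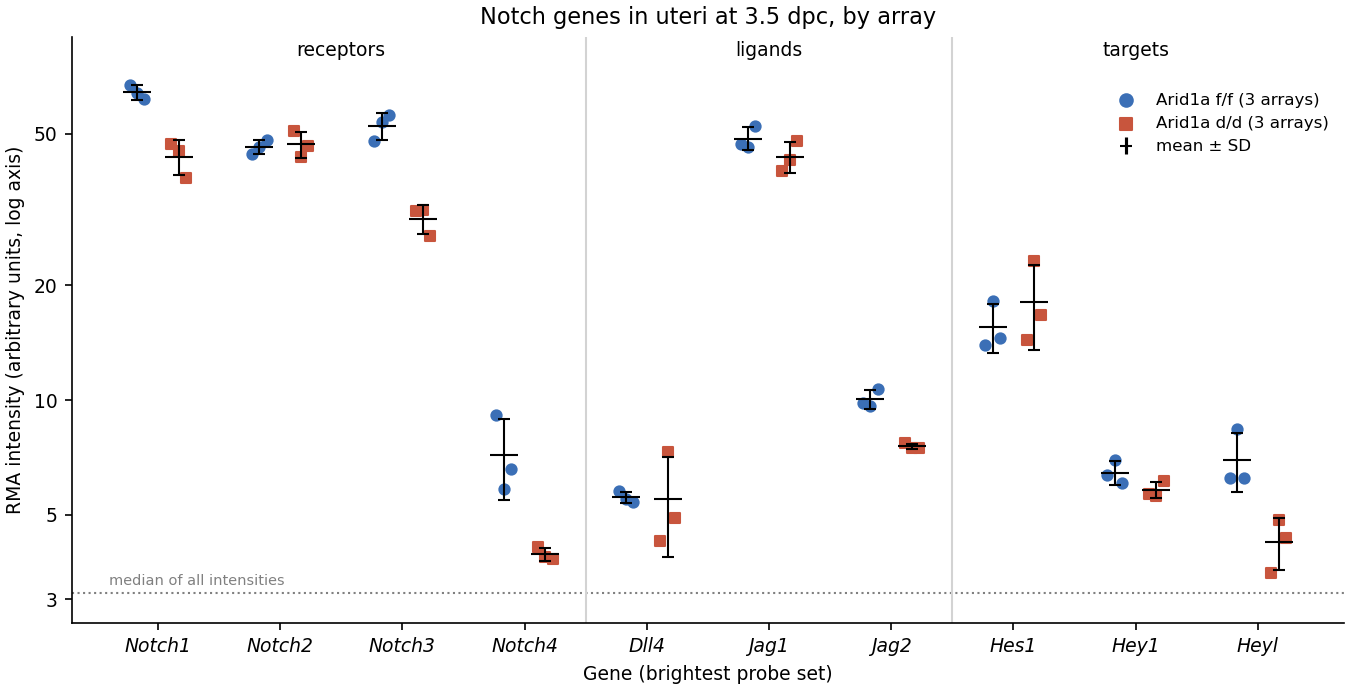
RMA intensity (log axis, arbitrary units) of the brightest probe set of each of the 10 Notch genes on each of the 3 Arid1a f/f arrays (circles) and 3 Arid1a d/d arrays (squares), with mean ± SD. For Notch1, Notch3, Notch4, Jag2 and Heyl all Arid1a d/d points lie below all Arid1a f/f points, whereas the groups overlap for the other 5 genes. The Arid1a d/d points of Notch4 and Heyl lie near the median of all intensities (dotted line, 3.12).

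The start regions of 4 of the genes that fell are shown because these genes moved the same way. RefSeq promoter sequences (GRCm38.p6) were matched for 7 of the 10 genes, all but Hes1, Hey1 and Heyl. Each stretch below runs 5′ to 3′ on the gene's own strand, from 150 bases before to 30 bases after the annotated start, 180 bases in all. Capitals mark every match, on either strand, to the GC box GGGCGG (read as CCGCCC on the other strand), which Sp1-type factors bind, or to the AP-1 motif TGACTCA. The stretches are Notch1 at chr2:26503793-26503972 (minus strand), Notch3 at chr17:32166861-32167040 (minus strand), Notch4 at chr17:34564145-34564324 (plus strand) and Jag2 at chr12:112929466-112929645 (minus strand).
Notch1: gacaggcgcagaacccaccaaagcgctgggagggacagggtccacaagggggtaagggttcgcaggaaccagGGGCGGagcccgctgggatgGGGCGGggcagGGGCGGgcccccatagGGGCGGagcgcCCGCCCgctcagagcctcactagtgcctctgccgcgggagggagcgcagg
Notch3: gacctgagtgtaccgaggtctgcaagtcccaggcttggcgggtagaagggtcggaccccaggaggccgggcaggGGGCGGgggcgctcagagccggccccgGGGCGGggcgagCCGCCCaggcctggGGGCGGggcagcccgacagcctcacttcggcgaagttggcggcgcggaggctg
Notch4: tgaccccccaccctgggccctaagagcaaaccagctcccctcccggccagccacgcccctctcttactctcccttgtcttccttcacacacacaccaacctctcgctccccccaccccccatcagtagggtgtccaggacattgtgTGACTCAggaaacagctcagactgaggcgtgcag
Jag2: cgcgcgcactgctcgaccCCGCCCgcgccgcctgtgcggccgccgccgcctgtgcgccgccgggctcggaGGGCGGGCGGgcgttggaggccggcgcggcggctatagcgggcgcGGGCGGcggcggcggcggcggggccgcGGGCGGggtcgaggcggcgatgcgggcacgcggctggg

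Notch1 and Jag2 each held 5 GC boxes in the printed stretch, counting overlapping matches separately, and Notch3 held 4. Notch4 held none, and its AP-1 match starts 4 bases before the annotated start. Over the whole 300-base windows of the table (250 bases before to 50 after the start), GC boxes were found in 5 of the 7 Notch gene promoters, in all but Notch4 and Jag1, and in 35.7% of all 32851 mouse promoters. The AP-1 motif was found in 1 of 7 and in 5.20% of all. The RBPJ core TGGGAA, searched on both strands, was found in 0 of 7 and in 25.6% of all. Of 4 other pathway genes searched, Hes5 and Hey2 held 2 each, and Nrarp and Dtx1 held 0. The windows differed in base composition, from 58.3% G and C for Notch4 to 68.3% for Notch1, 70.0% for Notch3 and 86.0% for Jag2, against a median of 52.7% over all promoters. GC boxes were present both in genes that fell (Notch1, Notch3 and Jag2) and in genes that were not called (Notch2 and Dll4), so the matches did not separate the groups. A match is a description of the letters in the window.

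Among the receptors, 3 of 4 fell. Notch3, the receptor of mural cells, had the smallest adjusted p of the 10 genes. Its brightest probe set (1421965_s_at) had intensities of 47.8, 53.7 and 56.2 on the Arid1a f/f arrays and of 31.4, 31.6 and 26.9 on the Arid1a d/d arrays. The groups did not overlap, with means of 52.58 ± 4.30 and 29.97 ± 2.65 (SD, n = 3 each). The log2 fold change was -0.81 (standard error 0.11, limma adjusted p = 0.00824). The call remained whichever array was left out, with log2 fold changes of -0.88 to -0.74 and adjusted p of 0.0184 to 0.0434 in limma. The other Notch3 probe set (1421964_at) read 7.98, 6.13 and 5.44 in Arid1a f/f mice and 4.83, 4.30 and 3.17 in Arid1a d/d mice. These values did not overlap either, and the log2 fold change of -0.67 was not called (limma adjusted p = 0.0843). The suffix _s_at marks a probe set that can detect several transcripts, and with such probe sets left out Notch3 rests on the second one (limma adjusted p = 0.0890).

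Notch4, the receptor restricted largely to endothelium, fell as well. Its brightest probe set (1449146_at) read 9.15, 5.84 and 6.58 on the Arid1a f/f arrays and 4.12, 3.87 and 3.82 on the Arid1a d/d arrays. All Arid1a d/d values were lower, and Arid1a f/f array 1 was the highest of the 6. The Arid1a d/d values lie near the median of all intensities, so they cannot be told from background and the size of the fold is uncertain. The log2 fold change was -0.84 (standard error 0.16, limma adjusted p = 0.0237). The call was lost without Arid1a f/f array 3, Arid1a d/d array 2 or Arid1a d/d array 3, with a highest adjusted p of 0.0702 in limma. The other two Notch4 probe sets had log2 fold changes of 0.00 and 0.04 and lay below the median of all intensities on all 6 arrays. As the mean of its 3 probe sets, Notch4 had a log2 fold change of -0.27 and was not called (limma adjusted p = 0.131).

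Notch1, the receptor with the broadest known roles, including in endothelium, also fell. The probe set 1418634_at read 67.4, 63.9 and 61.7 in Arid1a f/f mice and 47.0, 45.2 and 38.4 in Arid1a d/d mice. The groups were well apart, and the log2 fold change was -0.57 (standard error 0.11, limma adjusted p = 0.0255). With 1 array left out the call held without Arid1a d/d array 1 only, and the adjusted p reached 0.0894 in the other 5 fits. The dimmer probe set 1418633_at overlapped between genotypes, with means of 10.6 ± 0.727 and 8.58 ± 2.20 (SD, n = 3 each) and a log2 fold change of -0.33 (limma adjusted p = 0.380).

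Notch2 was the receptor without a call. It read 44.3, 46.2 and 48.3 on the Arid1a f/f arrays and 51.0, 43.6 and 46.4 on the Arid1a d/d arrays, and the groups overlapped. The log2 fold change was 0.02, with a 95% interval from -0.21 to 0.25 (limma adjusted p = 0.950), and its sign turned under some alternatives. The second probe set had -0.07 and lay below the median of all intensities on all 6 arrays. The fall of Notch1 and Notch3 was not tested against the value of Notch2.

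**Figure D2:**
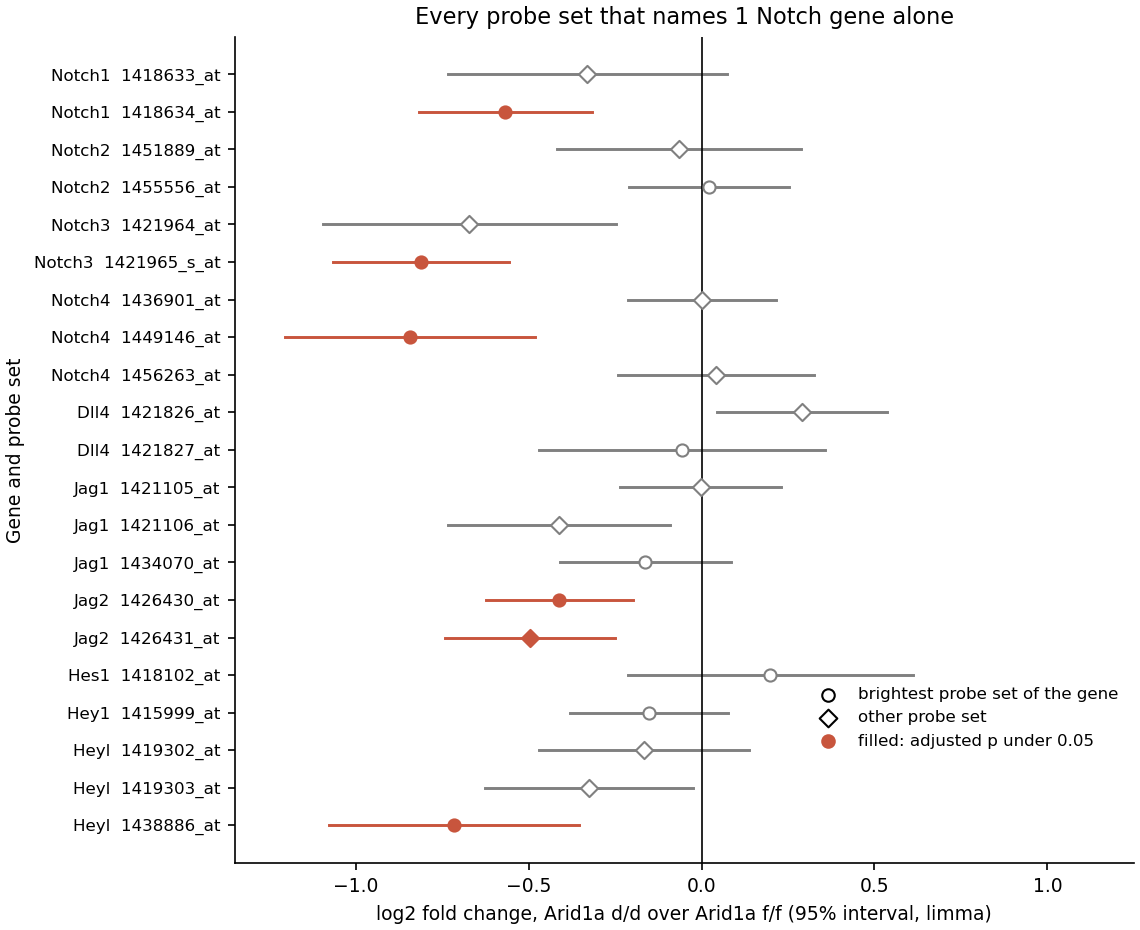
Log2 fold change (Arid1a d/d over Arid1a f/f) with its 95% interval from limma for each of the 21 probe sets that name 1 of the 10 Notch genes alone. Circles are the brightest probe set of each gene, diamonds the others, and filled symbols have an adjusted p under 0.05. Of these, 6 are filled, all below 0. Jag2 is the gene with 2 filled probe sets, and the dimmer of them lies near the median of all intensities in Arid1a d/d mice.

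Among the ligands, 1 of 3 fell. Jag2, a Jagged-family ligand, read 9.85, 9.62 and 10.7 on the Arid1a f/f arrays and 7.70, 7.48 and 7.48 on the Arid1a d/d arrays. The change was small and even, and the log2 fold change was -0.41 (standard error 0.094, limma adjusted p = 0.0442). Its second probe set read 5.71, 5.36 and 4.86 against 4.09, 3.66 and 3.53. This probe set was also called, with a log2 fold change of -0.50 (limma adjusted p = 0.0374), and no array of one genotype reached those of the other in either probe set. The Arid1a d/d values of the second probe set lie near the median of all intensities, so the size of its fold is uncertain. The call of the brightest probe set was lost in each of the 6 fits with 1 array left out (limma adjusted p 0.0777 to 0.139). It was lost too after centring each array on its median (limma adjusted p = 0.0520), with limma's trend and robust options (0.111) and with the replicate number as a block (limma adjusted p = 0.0791).

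Jag1, the other Jagged ligand, read 47.2, 46.3 and 52.5 in Arid1a f/f mice and 39.9, 42.8 and 47.9 in Arid1a d/d mice. The groups overlapped, and the log2 fold change was -0.16, with a 95% interval from -0.41 to 0.09 (limma adjusted p = 0.504). Its other probe sets had -0.41 (limma adjusted p = 0.153) and -0.00, the latter below the median of all intensities on 5 of the 6 arrays.

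Dll4, the Delta-like ligand of arterial and sprouting endothelium, varied more among the Arid1a d/d arrays. It read 5.77, 5.51 and 5.40 in Arid1a f/f mice and 4.26, 7.32 and 4.90 in Arid1a d/d mice. The high value came from Arid1a d/d array 2, and the other two Arid1a d/d arrays lay below all Arid1a f/f arrays. The log2 fold change was -0.06 (95% interval -0.47 to 0.36, limma adjusted p = 0.922), and it was -0.28 without Arid1a d/d array 2. The second Dll4 probe set went the other way, at 3.77, 3.60 and 3.87 against 4.44, 5.15 and 4.20. It did not overlap, but the log2 fold change of 0.29 was not called (limma adjusted p = 0.190), so the direction of Dll4 is unsettled in these arrays.

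Among the targets, 1 of 3 fell. Heyl, a HEY-family repressor best known from vascular smooth muscle and pericytes, read 6.25, 8.40 and 6.24 on the Arid1a f/f arrays and 3.52, 4.83 and 4.34 on the Arid1a d/d arrays. The groups did not overlap, and the log2 fold change was -0.72 (standard error 0.16, limma adjusted p = 0.0401). The Arid1a d/d values lie near the median of all intensities, so the size of the fold is uncertain. No fit with 1 array left out kept the call (limma adjusted p 0.0517 to 0.125). The other Heyl probe sets had log2 fold changes of -0.17 (limma adjusted p = 0.594) and -0.33 (limma adjusted p = 0.230), and both overlapped between genotypes. The latter lay below the median of all intensities on 4 of the 6 arrays. As the mean of its probe sets, Heyl had -0.40 and was not called (limma adjusted p = 0.088).

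Hes1, the widely expressed HES-family target, read 13.9, 18.2 and 14.5 in Arid1a f/f mice and 14.4, 23.1 and 16.8 in Arid1a d/d mice. Arid1a d/d array 2 was again the highest, and the groups overlapped. The log2 fold change was 0.20 (95% interval -0.21 to 0.61, limma adjusted p = 0.650), and 0.0073 without Arid1a d/d array 2. Hey1, a HEY factor of endothelial cells, read 6.34, 6.96 and 6.05 against 5.67, 5.61 and 6.12. These also overlapped, and its log2 fold change was -0.15 (95% interval -0.38 to 0.08, limma adjusted p = 0.496). Hes1 and Hey1 each have a single probe set here, so neither has a second measurement.

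The rest of the pathway was described with a list of 60 further genes, of which 55 were measured. Of these, 1 fell and 0 rose at an adjusted p under 0.05 in limma, beside 4.06% lower and 3.37% higher of all genes. For 12 of the 55 every Arid1a d/d array lay below every Arid1a f/f array, beside 16.0% of all genes. For 5 of the 55 every Arid1a d/d array lay above every Arid1a f/f array, and the share of all genes was not counted in that direction. At an unadjusted p under 0.05, 10 were lower and 4 higher, beside 13.5% and 11.4% of all genes. The median log2 fold change of the 55 genes was -0.06. The gene that fell was Dtx1, a Deltex ubiquitin ligase that acts on Notch receptors. It read 20.39, 21.99 and 22.04 on the Arid1a f/f arrays and 11.9, 10.2 and 14.3 on the Arid1a d/d arrays. The groups were far apart, and the log2 fold change was -0.84 (standard error 0.13, limma adjusted p = 0.0127), a call lost without Arid1a f/f array 2 or 3 (highest limma adjusted p 0.0603). Its second probe set had 0.08 and lay below the median of all intensities on all 6 arrays.

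None of the other 8 genes of receptor trafficking and turnover passed the test, and the other pathway groups held no call. None of the 5 other ligands, the 4 ligand ubiquitin ligases, the 5 glycosyltransferases that modify the receptor, the 8 receptor proteases, the 7 genes of the nuclear activation complex, the 10 corepressors and the 7 other HES and HEY factors with Nrarp was called. The median log2 fold changes of these groups lay between -0.13 and 0.21. Rbpj, which encodes the DNA-binding partner of every Notch receptor, read 96.4, 97.6 and 108 in Arid1a f/f mice and 81.4, 61.5 and 93.9 in Arid1a d/d mice. Every Arid1a d/d value was below every Arid1a f/f value, yet the log2 fold change of -0.37 did not pass the test (limma adjusted p = 0.241). Nrarp, a feedback inhibitor that Notch itself induces, had a log2 fold change of -0.33 (limma adjusted p = 0.266). The ligand gene Dll1 had -0.05 (limma adjusted p = 0.878), and Hey2 had -0.19 (limma adjusted p = 0.499) with means below the median of all intensities in both genotypes. The ligand-like gene Dner read 3.19, 2.70 and 2.99 in Arid1a f/f mice and 10.9, 2.43 and 6.92 in Arid1a d/d mice. Its Arid1a d/d arrays disagreed among themselves, and the log2 fold change of 0.94 was not called with all arrays (limma adjusted p = 0.308), but was called without Arid1a d/d array 2 at 1.56 (limma adjusted p = 0.0108).

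**Figure D3:**
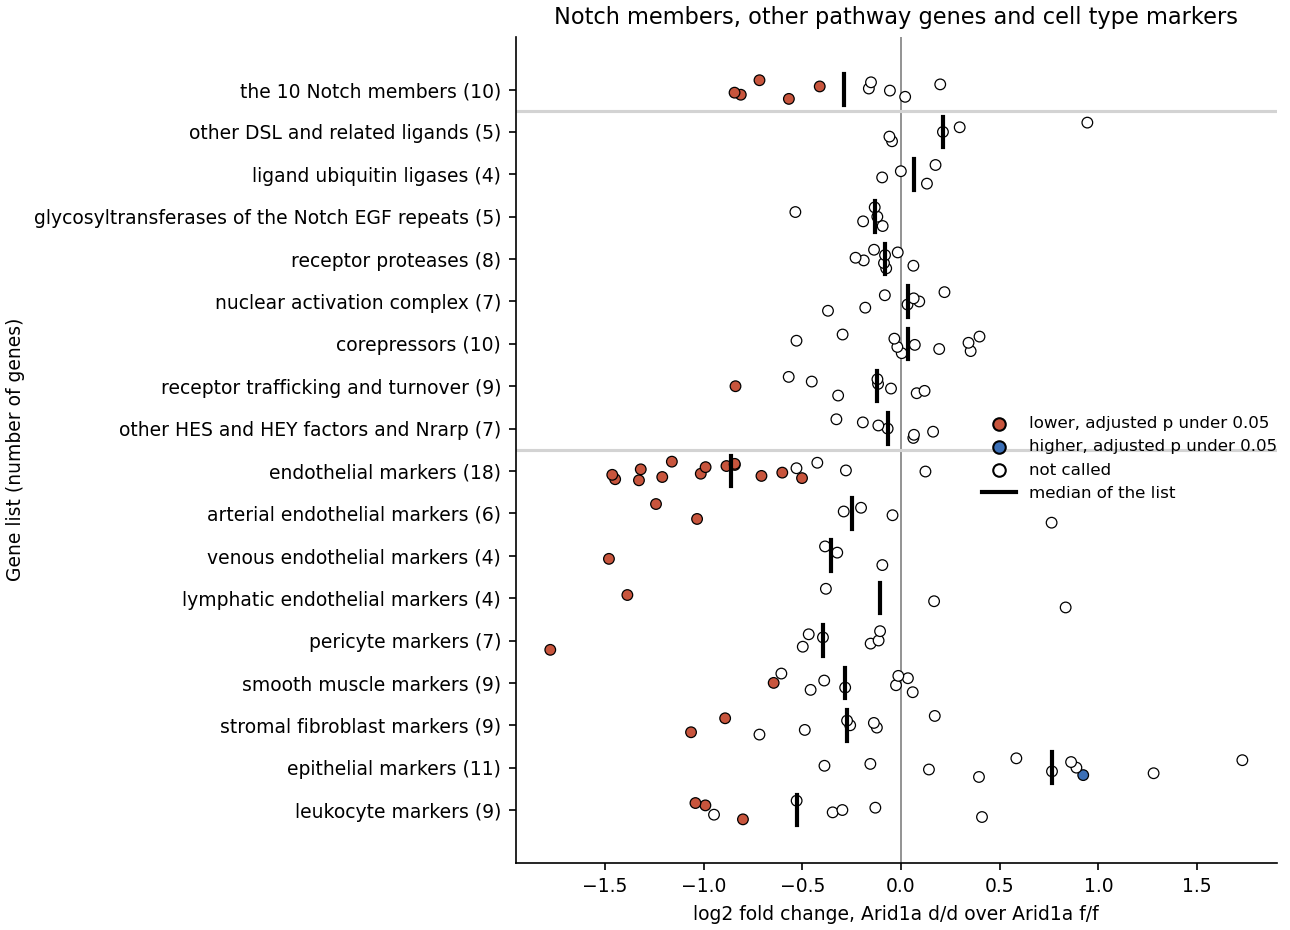
Log2 fold change (Arid1a d/d over Arid1a f/f) of each gene, by its brightest probe set, for the 10 Notch genes, the groups of the 55 other pathway genes and 9 lists of cell type markers, with the number of genes of each list in brackets and its median as a bar. Filled points have an adjusted p under 0.05 in limma. Filled below 0 are 14 of 18 endothelial markers and 1 of the 55 other pathway genes, beside 4.06% of all genes. The lists were chosen with earlier results of these data known.

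Endothelial markers were lower on the same arrays. Of 18 endothelial markers 14 fell and 0 rose, with a median log2 fold change of -0.86. Pecam1, an adhesion molecule of endothelial junctions, read 24.5, 21.5 and 25.2 in Arid1a f/f mice and 9.79, 6.83 and 12.6 in Arid1a d/d mice. Cdh5, which encodes VE-cadherin, fell by 1.45 on the log2 scale (standard error 0.15, limma adjusted p = 0.00321). The 2 brightest markers of this list were not called. Cd34 had 0.12 (limma adjusted p = 0.792), and its groups overlapped. Sox17 went the way of the list, at -0.42 without overlap (95% interval -0.72 to -0.13, limma adjusted p = 0.116). The summed intensity of the list ranged from 1526 to 1578 in Arid1a f/f mice and from 923 to 1261 in Arid1a d/d mice. Endothelial markers called lower numbered 7 without Arid1a f/f array 3, 8 without Arid1a f/f array 2 or Arid1a d/d array 3, and 10 or more in the other fits with 1 array left out. In RNA of a whole tissue, fewer cells of a type and less RNA per cell cannot be told apart.

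Of 7 pericyte markers 1 fell. It was Rgs5, a G-protein regulator of pericytes, which read 916, 960 and 1207 in Arid1a f/f mice and 313, 260 and 324 in Arid1a d/d mice, and the log2 fold change was -1.78 (standard error 0.14, limma adjusted p = 0.00124). The receptor gene Pdgfrb, also of pericytes, had -0.50 (limma adjusted p = 0.0563), and the median of the list was -0.40. Its summed intensity, which includes Rgs5, was 1407 to 1711 in Arid1a f/f mice and 645 to 733 in Arid1a d/d mice. The other 6 markers of the list were not called. The count of 1 held in every fit with 1 array left out. Of 9 smooth muscle markers 1 fell, with a median of -0.28. It was the intermediate filament gene Des, desmin (log2 fold change -0.64, limma adjusted p = 0.0313). The count was 2 without Arid1a d/d array 1 and 0 in each of the other 5 fits with 1 array left out. Acta2, the smooth muscle actin, had a log2 fold change of 0.06 (limma adjusted p = 0.821) and Tagln had -0.28 (limma adjusted p = 0.176), and the summed intensities of the list, 6320 to 7179 and 5804 to 6887, overlapped.

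Falls were not limited to these lists. The median log2 fold change was -0.53 for leukocyte, -0.35 for venous and -0.27 for stromal markers. It was -0.25 for arterial and -0.11 for lymphatic markers. Of 6 arterial endothelial markers 2 fell, Gja4 (log2 fold change -1.03, limma adjusted p = 0.0210) and Sema3g (-1.24, limma adjusted p = 0.00215), with Nrp1 at -0.29 (limma adjusted p = 0.252) and Efnb2 at 0.76 (limma adjusted p = 0.0682), neither called. Of 4 venous markers 1 fell, the apelin receptor gene Aplnr (log2 fold change -1.48, limma adjusted p = 0.00257), and Nr2f2 had -0.32 (limma adjusted p = 0.310). Of 4 lymphatic markers 1 fell, Pdpn (log2 fold change -1.39, limma adjusted p = 0.00468), and Lyve1 had 0.83 (limma adjusted p = 0.126). The arterial count was 2 without Arid1a d/d array 3 and 1 in the other 5 fits with 1 array left out, and the venous and lymphatic counts stayed at 1. Of 9 stromal markers 2 fell, Dcn (-1.06, limma adjusted p = 0.0180) and Thy1 (-0.89, limma adjusted p = 0.0177). Of 9 leukocyte markers 3 fell, Ptprc (-0.80), Nkg7 (-0.99) and Gzma (-1.04), with limma adjusted p of 0.0231 to 0.0320. The brightest genes of both lists, Col1a2 at -0.26, Col3a1 at -0.14, Csf1r at -0.35 and Laptm5 at -0.53, were not called (limma adjusted p 0.130 to 0.552). The stromal count was 0 without Arid1a f/f array 2 or Arid1a d/d array 2 and 1 without Arid1a f/f array 1. The leukocyte count was 0 without Arid1a f/f array 1 or 2, and 1 without Arid1a f/f array 3 or Arid1a d/d array 2. Of 11 epithelial markers 1 rose, Cdh1 (0.92, limma adjusted p = 0.0119), and 0 fell, a count that was 0 without Arid1a f/f array 2 and 2 without Arid1a d/d array 1 or 2. The list had a median of 0.77 that was 0.39 without Arid1a d/d array 2. Krt8 had 0.77 (limma adjusted p = 0.0953) and Cldn3 had -0.39 (limma adjusted p = 0.385). The part of these cell types in the fall of the Notch genes was not tested. The comparison that follows sets the Notch genes against endothelial markers only, and it does not test that part. No such comparison was made with the pericyte or other lists.

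The change of each Notch gene was set against the endothelial markers on the same array, as its log2 intensity minus the mean log2 intensity of the 18 markers. That mean was 5.55, 5.61 and 5.53 on the Arid1a f/f arrays and 4.83, 4.51 and 4.78 on the Arid1a d/d arrays, a change of -0.86. Relative to it, Notch3 differed by 0.045 between genotypes, Notch4 by 0.013 and Heyl by 0.14. For these 3 genes the arrays overlapped (exact permutation p = 0.8, 0.9 and 0.7, two-sided, n = 3 each), and the sign turned for each of them when some arrays were left out. When all probe sets of a gene were averaged, dim ones included, Notch4 differed by 0.51 (exact permutation p = 0.1) and Heyl by 0.37 (exact permutation p = 0.2), so both values depend on the probe set. Notch1 differed by 0.29 with overlap (exact permutation p = 0.2). For the other 6 genes every Arid1a d/d array lay above every Arid1a f/f array on this scale, with mean differences of 0.44 for Jag2, 0.69 for Jag1, 0.70 for Hey1, 0.80 for Dll4, 0.88 for Notch2 and 1.06 for Hes1. Each had an exact permutation p of 0.1, which is the smallest that 3 against 3 arrays can give, and an adjusted p of 0.167 over the 10 genes, so no difference could pass the threshold, and the overlap of the others does not show equal change. Such separation was found for 92.2% of all genes, whose median difference on this scale was 0.84, since the markers themselves fell. The comparison does not say in which cells the RNA was.

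**Figure D4:**
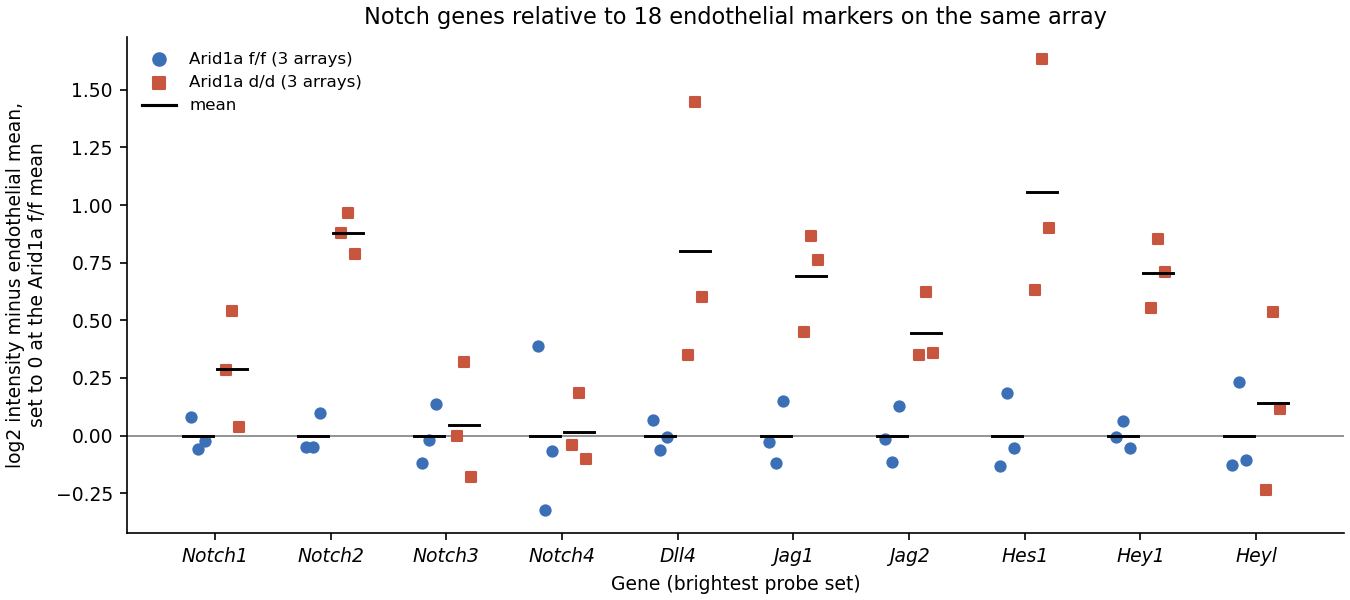
Log2 intensity of each Notch gene minus the mean log2 intensity of 18 endothelial markers on the same array, set to 0 at the Arid1a f/f mean (points are arrays, 3 per genotype, bars are means). Arid1a d/d points overlap the Arid1a f/f points for Notch1, Notch3, Notch4 and Heyl and lie above them for the other 6 genes, with a mean difference of 0.44 for Jag2 up to 1.06 for Hes1, as they do for 92.2% of all genes.

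The genes most like Notch3 over the 6 arrays were found among all 18193 by the root mean square difference between log2 profiles, each centred on its own mean. They were Prkch, a protein kinase C gene, at 0.049, Nell1 at 0.068, Lrrc8c, a subunit gene of volume-regulated channels, at 0.069, the flotillin gene Flot1 at 0.073 and the long noncoding RNA gene Meg3 at 0.075. Prkch read 29.2, 35.3 and 36.5 in Arid1a f/f mice and 19.6, 18.8 and 16.95 in Arid1a d/d mice. The log2 fold changes of these 5 genes lay between -0.86 (Prkch) and -0.74 (Nell1, 3 of whose 6 values were below the median of all intensities, and Flot1). That these lie close to the value of Notch3 follows from how the genes were picked.

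**Figure D5:**
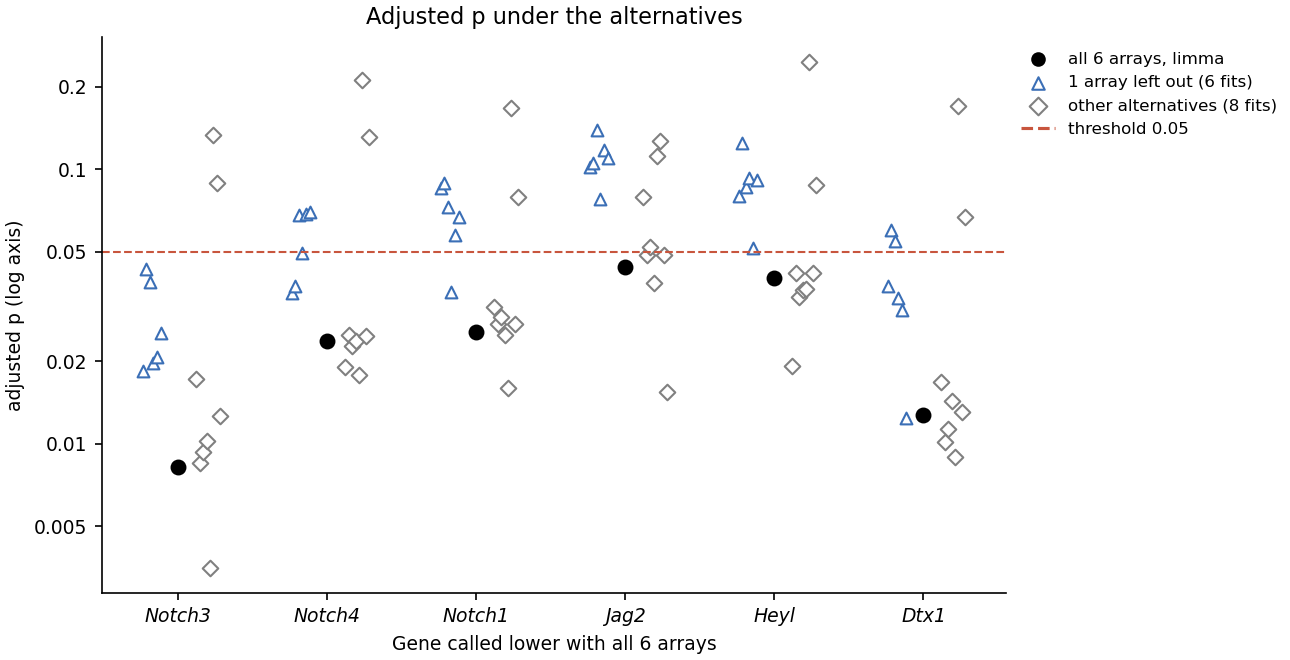
Adjusted p (log axis) of the 5 Notch genes that fell and of Dtx1, with all 6 arrays in limma (black), with 1 array left out (triangles, 6 fits) and under 8 other alternatives (diamonds), against the threshold of 0.05 (dashed). All 6 triangles of Notch3 lie under the line, 3 of Notch4, 1 of Notch1, 0 of Jag2, 0 of Heyl and 4 of Dtx1.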

How the data were processed

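Intensity values were made by the authors from Affymetrix mouse arrays by RMA with default settings and global scaling, and deposited on a linear scale from 1.29 to 4479. No RMA version is given in the submitters' processing notes. The methods set each array's trimmed mean to an arbitrary round target, well above the 16.4 to 17.2 found in the deposited table after trimming 2% of each tail, and how the table came to this scale is not given in the sources used. The deposited intensity was log2-transformed with no filter. Of 45037 probe sets, 34945 name 1 gene, 932 several and 9160 are unnamed here, by the platform annotation with symbols updated to the GRCm38.p6 gene table. Genotypes came from the labels. The 45037 probe sets were fitted by lmFit and eBayes of limma 3.58.1 (R 4.3.3), with two-sided p-values adjusted after Benjamini-Hochberg, and the fit was tested on simulated data. Member changes relative to endothelial markers were tested by exact permutation of arrays in Python (pandas 2.3.3, scipy 1.17.1).

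The 10 genes, the pathway and marker lists and the tests were chosen with earlier results of these data known, and a published table of changed genes had been read. The rule named all 10 genes with every probe set, pathway genes past the test, Rbpj, Dll1, Hey2 and Nrarp, the 2 brightest genes of each marker list, Arid1a and the 5 genes most like the gene of smallest adjusted p. Pecam1, Cdh5, Hoxa10, Hoxa11, Pgr, Dner, Dtx3, Dtx4, Mfng, Hes5 and the called markers below the 2 brightest (Des, Gja4, Sema3g, Dcn, Thy1, Ptprc, Nkg7, Gzma and Cdh1) are outside it, chosen once their values had been seen. Of 60 pathway genes 55 were measured, and the others are not analysed here, nor is the lymphatic marker Ccl21a. The number of arrays, 3 per genotype, limits the precision. The settings varied were quantile normalization or median centring of the arrays, a replicate block, omission of dim probe sets, eBayes options (trend, robust), the methods' t-test in place of limma, a 1.5-fold rule, leaving out probe sets that detect several transcripts, the mean of probe sets per gene and leaving out each array.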

Additional observations from a re-analysis of the deposited data

How the results depend on the processing

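Of 150 values of the 10 genes under the alternatives, 110 kept their direction and their side of the threshold, 34 kept the direction but lost the call, 6 turned sign and 0 gained a call. All 34 lost calls belong to the 5 genes called with all arrays, and the 6 turned signs to Notch2 and Dll4. The 110 include values of genes that were not called and stayed so, and they do not measure how stable the 5 calls were. The methods' t-test called no probe set of the arrays after adjustment, so its counts of 0 below hold for any list. The count of genes called lower, 5 with all arrays, was 0 by the methods' t-test, 2 with the mean of probe sets per gene (Notch3 and Jag2), 3 by the 1.5-fold rule and 1 to 3 with 1 array left out (1 without Arid1a f/f array 3, Arid1a d/d array 2 or Arid1a d/d array 3). Called probe sets, 6 with all arrays, numbered 0 by the methods' t-test and 1 to 4 with 1 array left out (1 without the same 3 arrays). Endothelial markers called lower, 14 with all arrays, numbered 0 by the methods' t-test and 7 to 11 with 1 array left out. Of the other pathway genes, 1 was called lower with all arrays, 0 by the methods' t-test, 2 after quantile normalization, with limma's trend and robust options or with the mean of probe sets per gene, and 3 without dim probe sets. The genes added to Dtx1 were Dtx3 and, in the last setting, Mfng as well, while the mean of probe sets gave Dtx3 and Mfng without Dtx1. With 1 array left out the count ran from 0 (without Arid1a f/f array 2 or 3) to 2 (without Arid1a d/d array 3, Dtx1 and Dtx4). Pathway genes called higher numbered 1 by the 1.5-fold rule and 0 to 1 with 1 array left out, the 1 being Dner. Why the calls changed was not tested, beyond the fewer arrays, or the fewer probe sets tested, that a setting leaves.

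The sign of Notch2 turned to -0.022 and that of Dll4 to 0.12 with the mean of probe sets per gene. With 1 array left out Notch2 ran from -0.039 to 0.074 and Dll4 from -0.28 to 0.11. Relative to the endothelial markers, Notch4 was -0.0031 without probe sets that detect several transcripts and 0.51 with the mean of its probe sets, where Heyl was 0.37. With 1 array left out it ran from -0.15 (without Arid1a f/f array 2) to 0.21, Notch3 from -0.091 to 0.16 and Heyl from -0.059 to 0.33, with the lowest values of Notch3 and Heyl without Arid1a d/d array 2. Same-numbered arrays of the genotypes deviated from their group means with correlations of -0.0036, 0.047 and 0.14, not all over 0.1, so the numbers were not taken to pair the samples. With the replicate block, 4 of the 10 genes and 6 of the 21 probe sets were called lower, and Jag2 was the gene that lost its call.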
